A study of Mus musculus with 2 samples.

Results

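Regulatory T cells of colitis-associated colon tumors (CACs) were studied in the mouse by single-cell RNA sequencing (scRNA-Seq). The cells described are those that the deposited annotation assigns to T cells and in which at least 1 molecule of *Foxp3* mRNA was counted. There were 1063 of them among 5737 annotated T cells and 38883 cells in all. For comparison, the 1388 T cells without *Foxp3* and with at least 1 molecule of *Cd4* were used, and both classes were compared within each library. A molecule can be missed, so the comparison cells may include regulatory T cells whose *Foxp3* was not counted. Their share was not tested. Since cells were selected on the measured value of *Foxp3*, every difference between the classes is a description, and no test was made.

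The female mice carried the genotype *Mir34a* F/F, in which the gene of the microRNA miR-34a is flanked by loxP sites and intact, or *Mir34a* ΔMye, in which *LysM-Cre* deletes this gene in the myeloid lineage. *LysM-Cre* is used for its activity in myeloid cells, and whether the gene was recombined in these T cells was not tested. In mice aged 6 to 10 weeks at the start, CACs were induced with AOM (azoxymethane, a carcinogen, 10 mg/kg) and 3 cycles of DSS (dextran sodium sulfate, which causes colitis, 2.5% in the earlier cycles and 2% in cycle 3), and tumors were taken at day 110. For each genotype, 6 to 8 tumors of 3 mice were pooled into 1 library, and the annotation used here does not give the mouse of a cell.

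Regulatory T cells are CD4 T cells that restrain other immune cells, and the transcription factor Foxp3 is required for their development and function. They take up the growth factor IL-2 through the receptor chain CD25 (*Il2ra*), withhold costimulation through Ctla4 and secrete inhibitory cytokines such as IL-10. In the intestine, one kind arises in the thymus, carries the transcription factors Helios (*Ikzf2*) and Gata3 and the IL-33 receptor ST2 (*Il1rl1*), and takes part in tissue repair, whereas another kind is induced by the microbiota and carries c-Maf (*Maf*).

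Where a pair of values is given, the first is from the F/F library and the second from the ΔMye library, so called by their labels, because the transcript features of the targeted gene could not be used as a check in these cells. The mature form, the hairpin and the stem loop of *Mir34a* had 0 UMIs (unique molecular identifiers, which count an amplified molecule once) in *Foxp3*-positive T cells, and the primary transcript had 0 and 1. The feature for *Lyz2* fused to Cre had 1 and 2 UMIs. The F/F library held 465 *Foxp3*-positive cells with a median of 3873 UMIs per cell (958 to 27460), and the ΔMye library held 598 with a median of 7919 (1631 to 35026). The *Foxp3*-negative *Cd4*-positive cells numbered 608 and 780, with medians of 4292.5 and 9213.5 UMIs. Median mitochondrial content was 1.89% and 3.05% in the *Foxp3*-positive cells and 1.61% and 2.98% in the comparison cells, and 6 and 7 *Foxp3*-positive cells were at or above the stated limit of 25%. Of the cell barcodes, 96 occurred in both libraries, 6 of them in annotated T cells. The level of an mRNA is the mean over cells of its UMIs per 10000 UMIs of the cell. Parentheses give 95% intervals. They cover counting error alone, and neither the spread between mice nor that between cells.

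*Foxp3*-positive cells made up 15.1% of T cells (13.8 to 16.4, exact binomial) in the F/F library and 22.6% (21.0 to 24.2) in the ΔMye library. Detection depends on depth, and T cells had medians of 3548 and 8043 UMIs. With each cell thinned at random to 1000 UMIs, the shares were 5.76% (4.95 to 6.65) and 7.42% (6.45 to 8.48), of the 3004 and 2642 T cells that were deep enough. Among T cells with a UMI of *Foxp3* or *Cd4*, the *Foxp3*-positive share was 43.3% (40.3 to 46.4) and 43.4% (40.8 to 46.1). The gap between the libraries was thus smaller at equal depth, with intervals that overlapped slightly, and was near 0 with the last denominator. That denominator was not thinned and itself depends on depth. *Cd4* was found in 37.8% and 62.5% of the *Foxp3*-positive cells, so the last shares do not show whether the gap is absent at equal depth. The spread between mice is not known for these shares.

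In the cell types that should lack *Foxp3*, 1.85% (1.65 to 2.06) and 1.79% (1.59 to 2.01) of cells had a *Foxp3* UMI, at median depths of 5189.5 and 7610.5 UMIs. The share was 1.64% and 1.46% in epithelial cells, 2.54% and 2.19% in macrophages and 2.76% and 3.67% in B cells. After thinning, 0.383% and 0.273% of all cells other than T cells remained with a *Foxp3* UMI. The share in T cells exceeded these values at either depth. At least 2 *Foxp3* UMIs were found in 6.93% and 15.5% of T cells, and in 0.215% and 0.276% of the other cells.

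**Figure D1:**
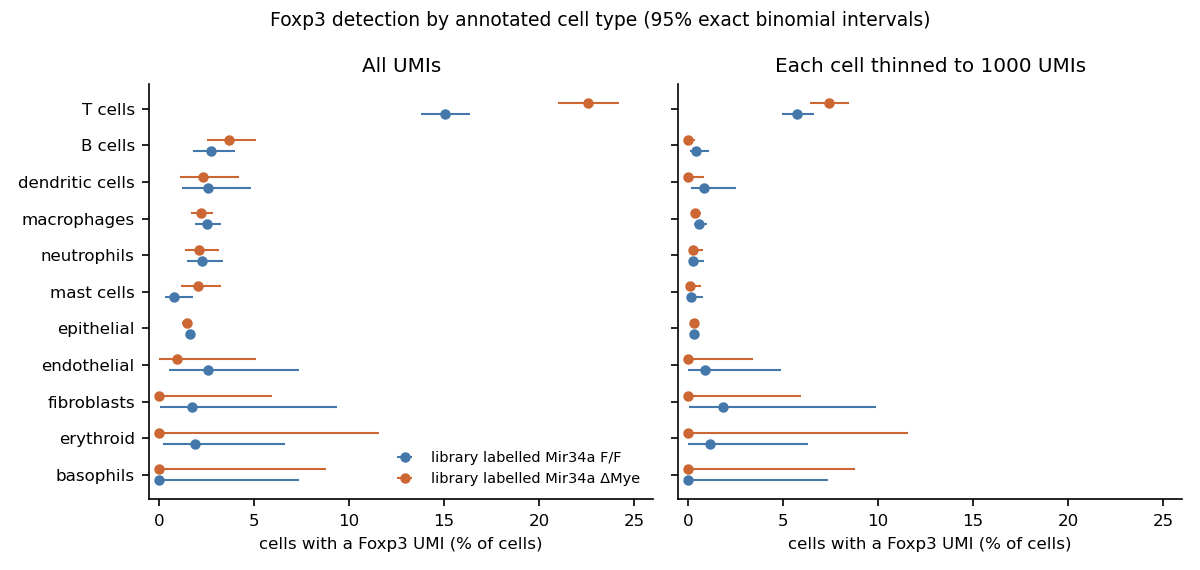
Share of cells with a *Foxp3* UMI (x axis, percent of cells) for each annotated cell type, in the F/F library (blue) and the ΔMye library (orange), with all UMIs (left) and after thinning to 1000 UMIs (right). Points are shares and bars are exact binomial 95% intervals; T cells reach 15.1% and 22.6% with all UMIs and 5.76% and 7.42% after thinning, above every other cell type.

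Many of the selected cells carried few *Foxp3* molecules. In the F/F library, 251 of the 465 cells (54.0%) had 1 *Foxp3* UMI, 107 had 2 and 107 had more, up to 9. In the ΔMye library, 187 of the 598 cells (31.3%) had 1 *Foxp3* UMI, 118 had 2 and 293 had more, up to 14. Cells just inside the threshold had an *Ikzf2* level near that of the others, 19.5 and 26.9 in cells with 1 *Foxp3* UMI and 18.7 and 26.8 in cells with 2 or more. Some other genes set them apart in the direction of the comparison cells. *Tcf7*, a transcription factor of less differentiated T cells, had levels of 0.310 and 0.409 in cells with 1 UMI against 0.0932 and 0.131. *Klrg1*, an inhibitory receptor, had 1.33 and 1.16 against 2.25 and 2.17, in the same direction. The cytokine gene *Il17a* had 2.39 against 0.889 in the ΔMye library, whereas in the F/F library it had 0.823 against 0.642, with a counting interval of the log2 ratio of 2 or more UMIs over 1 UMI that spanned 0 (-0.92 to 0.22). *Ctla4* was slightly lower in cells with 1 UMI (12.6 and 13.1, against 14.5 and 16.3), and so was *Il2ra* (5.198 and 5.89, against 6.49 and 8.47). *Itgb8* did not shift that way, with 1.85 and 2.58 in cells with 1 UMI against 1.51 and 2.55. Cells with 1 *Foxp3* UMI had median depths of 3548 and 6437 UMIs, against 4352 and 8596 in cells with 2 or more. Just outside the threshold, the comparison cells had *Ikzf2* levels of 4.52 and 6.78 and *Il2ra* levels of 1.86 and 2.48. *Cd4*, which the comparison cells carry by choice, was found in 37.8% and 62.5% of the *Foxp3*-positive cells.

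The markers of regulatory T cells besides *Foxp3* were *Il2ra*, *Ctla4* and *Ikzf2*. *Ikzf2* had a level of 19.1 and 26.8 in *Foxp3*-positive cells and of 4.52 and 6.78 in the comparison cells, a log2 ratio of 2.08 (1.97 to 2.19) and 1.98 (1.92 to 2.04). *Il2ra* was 3.11-fold and 3.09-fold higher, with levels of 5.79 and 7.67. *Ctla4* was abundant in both classes, with levels of 13.5 and 15.3 against 10.0 and 9.79, and was 1.34-fold and 1.56-fold higher in *Foxp3*-positive cells. Relative to CD8 T cells (153 and 157 T cells with *Cd8a* and neither *Foxp3* nor *Cd4*), the order differed by gene. The *Ctla4* level of CD8 T cells was 2.59 and 2.06 and their *Il2ra* level 0.501 and 0.563, far below the *Foxp3*-positive cells, whereas their *Ikzf2* level of 14.9 and 18.7 came nearer to that of the *Foxp3*-positive cells than to that of the comparison cells. As background, *Ikzf2* levels were 0.874 and 1.13 in epithelial cells, *Ctla4* levels 0.380 and 0.475, and *Il2ra* levels 0.0716 and 0.141. All 3 markers were thus higher in *Foxp3*-positive than in comparison cells in both libraries, *Ctla4* by less than 2-fold.

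Across the genome, 8718 genes had a mean level of at least 0.1 over both classes and libraries and at least 20 UMIs in each library, and are called measured. A gene can pass this limit through the class in which it is high while near the floor in the other. Such genes are among those counted here. *Foxp3*, on which the cells were chosen, is not among them, whereas *Cd4*, on which the comparison cells were chosen, is. Of these genes, 111 (1.27%) were at least 2-fold higher in *Foxp3*-positive cells in both libraries, and 90 (1.03%) at least 2-fold lower. The median log2 ratio of all measured genes was 0.06 and 0.05.

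**Figure D2:**
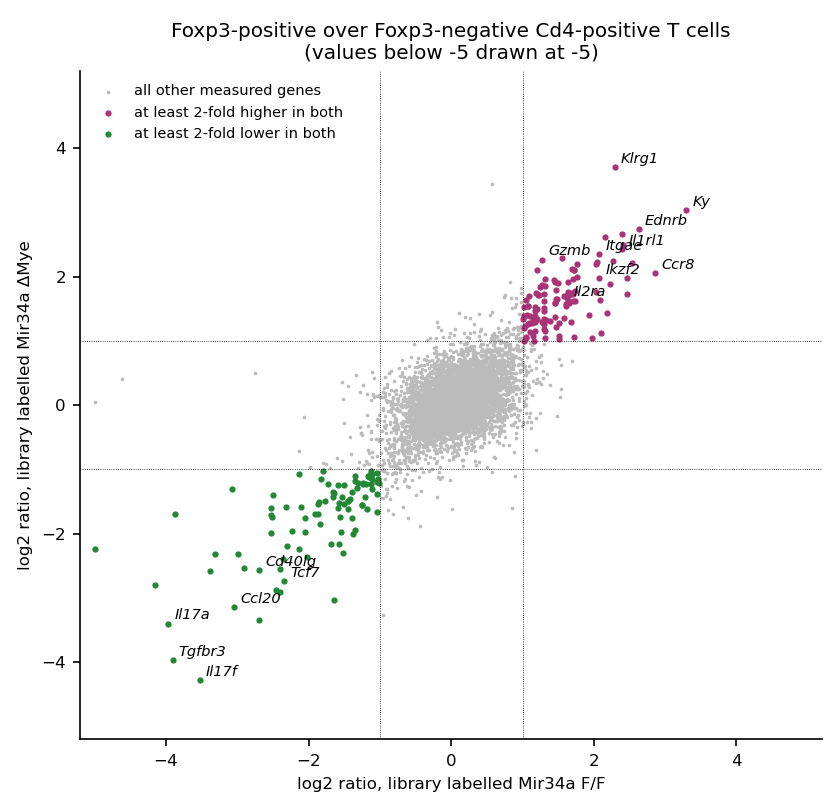
Log2 ratio of levels in *Foxp3*-positive over *Foxp3*-negative *Cd4*-positive T cells for the 8718 measured genes, in the F/F library (x axis) and the ΔMye library (y axis). Each point is a gene; the 111 genes at least 2-fold higher in both are purple, the 90 at least 2-fold lower in both are green, and dotted lines mark 2-fold.

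The largest ratios belonged to genes outside the usual marker sets as well as to known ones. *Ky*, which encodes a muscle-associated protein of the cytoskeleton, had a level of 0.819 and 1.14 in *Foxp3*-positive cells and of 0.0834 and 0.139 in the comparison cells. It was 9.82-fold and 8.20-fold higher, and epithelial cells had levels of 0.0147 and 0.0183. *Ednrb*, an endothelin receptor, was 6.18-fold and 6.71-fold higher, with levels of 0.787 and 0.970 against 0.127 and 0.145. *Frmd5*, a FERM domain protein, had levels of 5.73 and 9.39 against 1.09 and 1.49. The other genes among the 15 with the largest ratios in both libraries were *Il1rl1*, *Mreg*, *Klrg1*, *Itgb8*, *Gm29114*, *Itgae*, *Ikzf4*, *Ankrd55*, *Ccr8*, *Dscaml1*, *Ikzf2* and *Lrrc32*. Their log2 ratios lay between 1.98 and 3.71. Some of these genes had few UMIs. *Mreg* had 30 and 113 in *Foxp3*-positive cells against 10 and 38 in the comparison cells. The interval of its log2 ratio in the F/F library, 0.74 to 3.74, reached below 2-fold.

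Of the 15 genes listed for the identity of regulatory T cells besides *Foxp3*, 14 were measured, and 9 of these were at least 2-fold higher in both libraries and 0 lower, against 1.27% of all measured genes. The median log2 ratio of the 14 was 1.45 and 1.61. The 9 were *Ikzf2*, *Il2ra*, *Ikzf4* (Eos, a partner of Foxp3), *Lrrc32* and *Itgb8*, *Izumo1r* (folate receptor 4), and the costimulatory receptors *Tnfrsf9* (4-1BB), *Tnfrsf4* (OX40) and *Tnfrsf18* (GITR). *Lrrc32*, which encodes GARP and tethers latent TGF-β, had levels of 0.278 and 0.395 against 0.0504 and 0.1005. *Itgb8*, an integrin chain that releases active TGF-β, had levels of 1.69 and 2.56 against 0.353 and 0.540. *Tnfrsf9* was found in 82.6% and 89.6% of the *Foxp3*-positive cells, with levels of 10.4 and 11.6 against 3.32 and 3.09. *Nrp1*, often used to mark regulatory T cells from the thymus, had log2 ratios of 0.35 and 0.75, and *Rgs1* was lower in *Foxp3*-positive cells, with -0.93 and -0.67. *Gpr83* was below the limit for measured genes.

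**Figure D3:**
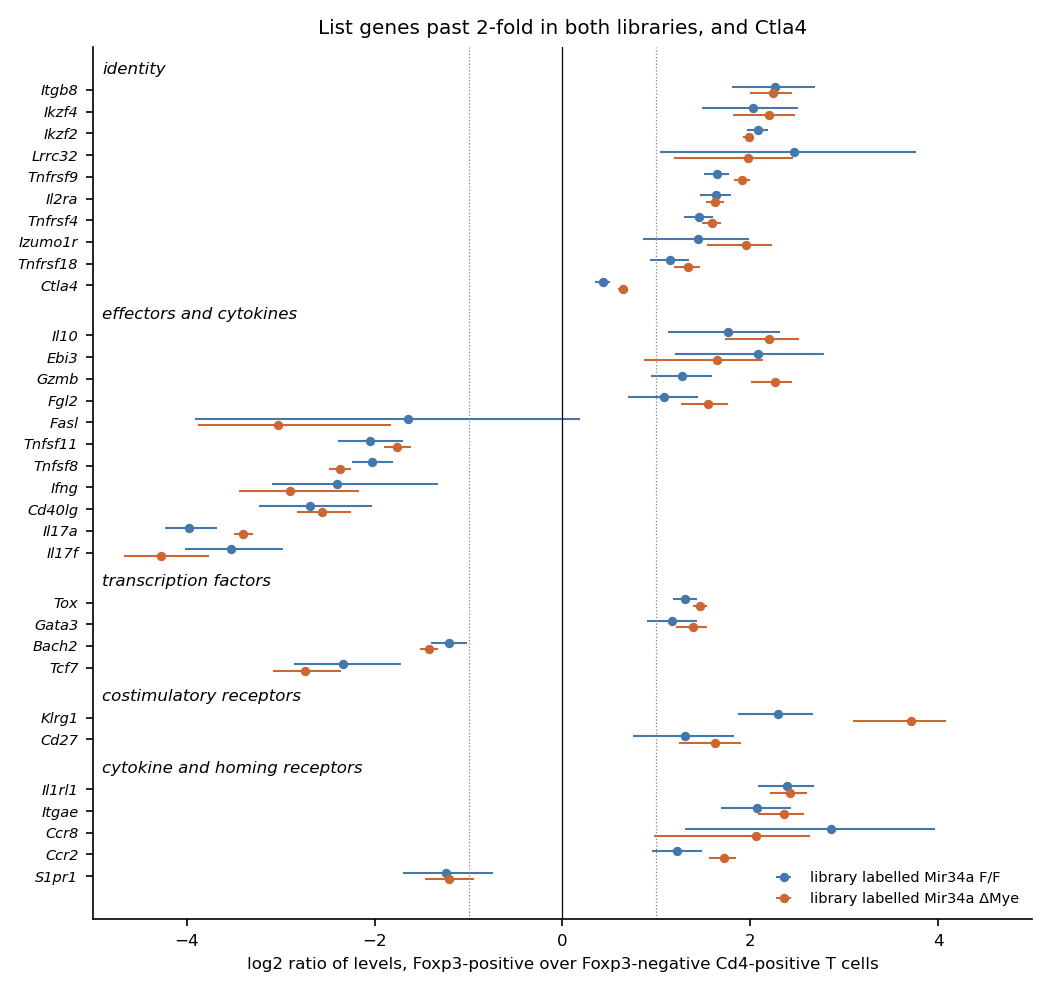
Log2 ratio of levels in *Foxp3*-positive over *Foxp3*-negative *Cd4*-positive T cells (x axis) for the listed genes past 2-fold in both libraries and for *Ctla4*, in the F/F library (blue) and the ΔMye library (orange). Bars are 95% counting intervals and dotted lines mark 2-fold. The identity genes drawn lie right of 0 and most T helper cytokines drawn lie left of it. Apart from *Ctla4*, genes short of 2-fold are not drawn, such as *Rgs1* of the identity list (-0.93 and -0.67).

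Genes of suppressive effectors were measured for 13 of 14 members, and 4 were at least 2-fold higher in both libraries and 0 lower, against 1.27% and 1.03% of all measured genes. The median log2 ratio of the 13 was 0.39 and 0.93. *Il10*, the inhibitory cytokine IL-10, had a level of 0.669 and 0.975 in *Foxp3*-positive cells and of 0.198 and 0.213 in the comparison cells. It was 3.38-fold and 4.58-fold higher and was found in 11.4% and 20.9% of *Foxp3*-positive cells, at 124 and 504 UMIs. Macrophages had *Il10* levels of 0.441 and 0.589. *Gzmb*, the cytotoxic protease granzyme B, had levels of 1.46 and 2.18 against 0.603 and 0.452, a log2 ratio of 1.27 (0.94 to 1.59) and 2.27 (2.01 to 2.45). *Fgl2*, a secreted inhibitor, had log2 ratios of 1.08 and 1.55. *Ebi3*, a chain of the cytokines IL-27 and IL-35, had levels of 0.411 and 0.318 against 0.0972 and 0.102, whereas *Il12a*, the partner chain in IL-35, was below the limit.

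Other effectors differed less. *Tgfb1* had levels of 2.02 and 2.43 against 2.09 and 2.27. The ectoenzymes that make adenosine, CD39 (*Entpd1*) and CD73 (*Nt5e*), had log2 ratios of 0.42 and 0.95, and of 0.15 and -0.10. *Areg*, the epithelial growth factor amphiregulin, was found in 66.0% and 77.6% of the *Foxp3*-positive cells, against 54.1% and 60.4% of the comparison cells. After thinning, the shares were 36.9% and 35.3% against 26.6% and 20.7%. The *Areg* level was 11.0 and 11.6 in *Foxp3*-positive cells and 11.6 and 7.26 in the comparison cells. Its log2 ratio was thus -0.07 (-0.15 to 0.02) in the F/F library and 0.68 (0.62 to 0.73) in the ΔMye library. The comparison cells all had a *Cd4* UMI by choice, which these ratios do not account for. *Foxp3*-positive cells with a *Cd4* UMI had *Areg* levels of 14.7 and 12.9, and those without had 8.82 and 9.38.

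The listed cytokines of T helper cells were mostly low in *Foxp3*-positive cells. Of 19 members, 11 were measured, and 6 of these were at least 2-fold lower in both libraries, against 1.03% of all measured genes, while *Il10* alone was higher. The median log2 ratio of the 11 was -2.03 and -2.37. *Il17a* had a level of 0.740 and 1.36 in *Foxp3*-positive cells and of 11.6 and 14.4 in the comparison cells, a log2 ratio of -3.97 (-4.23 to -3.68) and -3.40 (-3.50 to -3.29). In B cells, which should lack *Il17a*, its level was 0.192 and 0.140. *Il17f* had log2 ratios of -3.53 and -4.28, and *Ccl20*, which attracts cells that carry Ccr6, of -3.05 and -3.14. *Ifng* had 28 and 45 UMIs in *Foxp3*-positive cells, and 1 cell held 46.4% and 37.8% of them. *Cd40lg* (CD40 ligand), *Tnfsf11* (RANKL) and *Tnfsf8* (CD30 ligand), through which helper T cells activate their partners, had log2 ratios from -2.69 to -1.76. *Il2*, which regulatory T cells consume, was below the limit in the classes together.

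*Il22* showed how a single cell can carry a level. It was found in 1.72% and 2.34% of *Foxp3*-positive cells, and 1 cell held 54.6% and 59.9% of its UMIs there. Its log2 ratio was -0.95 in the F/F library and -3.26 in the ΔMye library, and -2.88 and -3.80 without that cell.

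Among transcription factors, all 26 listed members were measured, and 4 were at least 2-fold higher and 2 lower in both libraries, where 1.27% and 1.03% of all measured genes were. Their median log2 ratio was 0.04 and 0.22. *Gata3* had levels of 2.15 and 2.59 in *Foxp3*-positive cells against 0.955 and 0.991, and was found in 42.4% and 57.9% of them. *Tox*, a regulator of T-cell differentiation, had levels of 9.55 and 12.8 against 3.86 and 4.63. *Ikzf2* and *Ikzf4* were the others. The lower ones were *Tcf7* (TCF-1) and *Bach2*, which maintain less differentiated T cells. *Tcf7* had levels of 0.210 and 0.218 against 1.06 and 1.46, and *Bach2* of 2.02 and 2.83 against 4.67 and 7.57. *Ahr*, a receptor for dietary and microbial ligands, had levels of 0.820 and 0.885 against 0.706 and 0.783. *Rora* was abundant in both classes and had log2 ratios of 0.36 and 0.37.

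Costimulatory and checkpoint receptors were measured for 16 of 17 members, and 5 were at least 2-fold higher in both libraries and 0 lower, beside 1.27% and 1.03% of all measured genes. Their median log2 ratio was 0.37 and 0.89. The 5 were *Klrg1*, *Cd27* and the identity genes *Tnfrsf9*, *Tnfrsf4* and *Tnfrsf18*. A gene can stand on several lists, as do *Il2ra*, *Itgb8* and *Gzmb*, so that the counts of the lists share genes. *Klrg1*, an inhibitory receptor that binds cadherins, had a level of 1.76 and 1.86 in *Foxp3*-positive cells and of 0.359 and 0.142 in the comparison cells. Its log2 ratio was 2.29 (1.87 to 2.66) in the F/F library and 3.71 (3.10 to 4.09) in the ΔMye library. It was found in 35.5% and 47.3% of *Foxp3*-positive cells, against 7.07% and 5.00%. *Cd27* had log2 ratios of 1.31 and 1.62. *Pdcd1* (PD-1) was raised by less than 2-fold, with 0.94 and 0.93, and *Icos* had levels of 7.54 and 9.73 against 7.95 and 9.43.

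The 20 listed cytokine receptors were all measured, and 2 of them, *Il1rl1* and *Il2ra*, were at least 2-fold higher in both libraries and 0 lower, against 1.27% and 1.03% of all measured genes. As a list they lay near 0, with a median log2 ratio of -0.02 and -0.01. *Il1rl1* encodes ST2, through which tissue regulatory T cells respond to the alarmin IL-33. It had a level of 3.21 and 3.64 in *Foxp3*-positive cells and of 0.612 and 0.678 in the comparison cells, a log2 ratio of 2.39 (2.08 to 2.68) and 2.43 (2.21 to 2.60). It was found in 186 of 465 and 294 of 598 *Foxp3*-positive cells, or in 19.1% and 21.6% after thinning, against 4.30% and 4.75% of the thinned comparison cells. CD8 T cells had levels of 0.0580 and 0.129, and mast cells, which carry ST2 as well, had 7.33 and 8.16. Receptors of other helper programs were lower without passing 2-fold in both libraries. *Il23r* had log2 ratios of -1.22 and -0.94 and *Il1r1* of -1.31 and -0.98. *Il7r*, which is low on regulatory T cells of blood and lymph nodes, had levels of 4.61 and 5.02 against 4.94 and 5.14.

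Of the homing receptors, 20 of 22 members were measured, and 4 were at least 2-fold higher and 1 lower in both libraries, against 1.27% and 1.03% of all measured genes. Their median log2 ratio was 0.32 and 0.46. *Ccr8*, a chemokine receptor of regulatory T cells in tumors, had 59 and 128 UMIs in *Foxp3*-positive cells and 14 and 50 in the comparison cells, with levels of 0.274 and 0.259 against 0.0379 and 0.0622. *Itgae* (CD103), which binds E-cadherin of epithelial cells, was 4.21-fold and 5.13-fold higher, with levels of 1.91 and 2.17. *Ccr2* had levels of 2.05 and 3.67 against 0.881 and 1.11. *S1pr1*, through which T cells leave tissues, had levels of 0.342 and 0.441 against 0.809 and 1.02.

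Gata3 binds the letters AGATAA and forkhead factors such as Foxp3 can bind GTAAACA, and both were searched on both strands in the RefSeq promoter windows of 300 bases (250 before and 50 after a start). A window was listed for 81 of the 111 higher genes. AGATAA stood in 7 of these (8.64%), in 7.83% of the measured genes with a window and in 12.7% of all genes of the table. GTAAACA stood in 5 of the 81 (6.17%), and in 3.34% and 4.05% of the other sets. Of the 69 lower genes with a window, 7.25% held AGATAA and 4.35% held GTAAACA. With so few matches, nothing is read from these shares. The bases upstream of a start are shown for *Foxp3*, which chose the cells, and for *Il1rl1* and *Ccr8*, the receptors with a match among the 15 genes with the largest ratios (GRCm38.p6, plus strand), with matches in capitals. TTATCT is AGATAA read on the opposite strand, and *Foxp3* and *Il1rl1* have a further listed start each that is not shown, whose window held 0 matches for *Foxp3* and 1 match, AGATAA, for *Il1rl1*. A match is a description of the letters and not a binding site.
Foxp3, chrX:7580233-7580482: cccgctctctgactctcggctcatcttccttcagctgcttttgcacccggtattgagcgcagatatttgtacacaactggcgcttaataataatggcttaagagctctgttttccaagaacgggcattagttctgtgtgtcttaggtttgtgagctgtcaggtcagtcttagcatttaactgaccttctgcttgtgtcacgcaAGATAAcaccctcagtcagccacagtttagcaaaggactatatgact
Il1rl1, chr1:40439379-40439628: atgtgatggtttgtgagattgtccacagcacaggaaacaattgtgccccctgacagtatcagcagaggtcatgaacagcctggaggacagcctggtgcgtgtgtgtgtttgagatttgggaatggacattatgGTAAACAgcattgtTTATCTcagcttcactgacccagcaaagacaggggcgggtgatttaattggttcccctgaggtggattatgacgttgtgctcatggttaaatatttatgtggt
Ccr8, chr9:120091883-120092132: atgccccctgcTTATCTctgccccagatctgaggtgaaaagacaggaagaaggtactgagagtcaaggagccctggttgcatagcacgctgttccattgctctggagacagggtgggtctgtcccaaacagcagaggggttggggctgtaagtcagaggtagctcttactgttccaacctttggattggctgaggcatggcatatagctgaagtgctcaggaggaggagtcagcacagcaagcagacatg

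The 15 genes with the lowest ratios in both libraries were led by *Tgfbr3*, *Il17f*, *Il17a* and *Ccl20*. *Tgfbr3*, the coreceptor betaglycan, had 6 and 10 UMIs in *Foxp3*-positive cells against 78 and 243 in the comparison cells. The others were *Apol7e*, *8030451A03Rik*, *Tcrg-C1*, *Cd40lg*, *4930447N08Rik*, *St8sia1*, *Dlg2*, *Ifng*, *Tnc*, *Tcf7* and *4933406I18Rik*. *Tcrg-C1* is a constant segment of the γ chain of γδ T cells, with levels of 0.0330 and 0.0663 against 0.344 and 0.397.

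Of 13 measured genes of T-cell identity and 15 of cycling cells, 0 were past 2-fold in both libraries in either direction, against 1.27% and 1.03% of all measured genes, so that nothing is read from these counts. Median log2 ratios were -0.17 and 0.00 for T-cell identity and 0.18 and -0.16 for cycling. The T-cell identity genes include *Cd4*, which the comparison cells carry by choice. The *Cd3e* log2 ratio was -0.33 and -0.21, and that of *Trac* 0.22 and 0.24. *Mki67*, a marker of cycling cells, was found in 20.2% and 24.7% of *Foxp3*-positive cells and in 15.6% and 24.7% of the comparison cells. After thinning, the shares were 6.07% and 5.52% against 4.63% and 4.75%, with overlapping intervals. The cytotoxic list had 1 gene higher (*Gzmb*) and 1 lower (*Fasl*, with 6 and 22 UMIs in *Foxp3*-positive cells) among 10 measured, against the same shares of all measured genes, and a median log2 ratio of -0.44 and -0.83.

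Markers of other cell types were present in *Foxp3*-positive and comparison cells alike. The summed level of 7 epithelial markers, *Epcam* and *Krt8* among them, was 30.2 and 16.7 in *Foxp3*-positive cells, 27.1 and 14.97 in the comparison cells and 86.8 and 62.6 in epithelial cells. For 8 genes of B and plasma cells it was 14.8 and 32.2 against 13.1 and 29.0, with 914.7 and 1804 in B cells. For 9 genes of macrophages and dendritic cells it was 8.11 and 8.58 against 6.32 and 7.69, and for 5 mast cell genes 5.77 and 6.23 against 6.22 and 8.81. Neutrophil markers stood apart in the F/F library, with 12.6 in *Foxp3*-positive cells against 5.83 in the comparison cells, and with 4.50 against 5.44 in the ΔMye library. Among the 26 measured markers of other cell types, *Ighm* (immunoglobulin M heavy chain) was the one past 2-fold in both libraries, with levels of 0.612 and 0.910 against 0.289 and 0.311, where 1.27% of all measured genes were higher and 1.03% lower. The part of free RNA and of mixed droplets in the levels above was not tested.

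Within the *Foxp3*-positive cells, genes were also compared between cells with and without a UMI of a lineage gene. *Ikzf2* was found in 79.4% and 89.8% of *Foxp3*-positive cells, *Gata3* in 42.4% and 57.9%, *Klrg1* in 35.5% and 47.3% and *Il10* in 11.4% and 20.9%. These shares depend on depth, and a cell without a UMI may still express the gene.

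One group of mRNAs went with *Ikzf2*, *Gata3*, *Il1rl1* and *Klrg1*. Cells with *Ikzf2* had an *Il1rl1* level of 3.85 and 4.01, and cells without it of 0.789 and 0.420. *Itgb8* followed the same order, with 2.02 and 2.81 against 0.429 and 0.367, as did *Gata3*, with 2.51 and 2.78 against 0.740 and 0.883. *Il17a* went the other way, with 0.436 and 1.01 in cells with *Ikzf2* against 1.91 and 4.48. The comparison cells had *Il1rl1* levels of 0.612 and 0.678 and *Il17a* levels of 11.6 and 14.4. Whether some cells without *Ikzf2* are helper T cells with a stray *Foxp3* molecule was not tested. *Klrg1* was found in 53.2% and 61.9% of cells with *Il1rl1*, and in 23.7% and 33.2% of cells without it. *Penk*, the precursor of enkephalin peptides, had levels of 3.21 and 2.79 in cells with *Il1rl1* and of 0.952 and 0.883 in cells without. Depth moved with some of these splits, and its part in them was not tested. Median UMIs were 3889 and 7911 in cells with *Ikzf2* against 3745 and 8067 in cells without, and 4052 and 8230.5 against 3675 and 7580.5 for *Il1rl1*. They were 4169 and 8279 against 3590 and 7008 for *Gata3*, and 4512 and 8364 against 3548.5 and 7310 for *Klrg1*.

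Another group went with *Il10*. Cells with *Il10* had a *Maf* level of 15.7 and 13.4, against 6.12 and 6.71 in cells without it. *Gzmb* was 3.63 and 4.36 against 1.18 and 1.60 in this split, *Ctla4* 21.8 and 24.4 against 12.4 and 12.9, and *Ccr9*, a gut-homing receptor, 0.798 and 1.72 against 0.389 and 0.569. *Il1rl1* was lower in cells with *Il10*, at 1.98 and 1.75 against 3.37 and 4.14. *Ikzf2* was nonetheless found in 32 of 53 and 104 of 125 cells with *Il10* (60.4% and 83.2%), against 81.8% and 91.5% of cells without it. It was also found in 38.5% and 59.4% of the comparison cells, so that its detection alone does not assign a cell to a group. Cells with *Il10* had medians of 4240 and 8135 UMIs, and cells without it of 3775 and 7865. The direction of each of these differences was the same in both libraries.

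**Figure D4:**
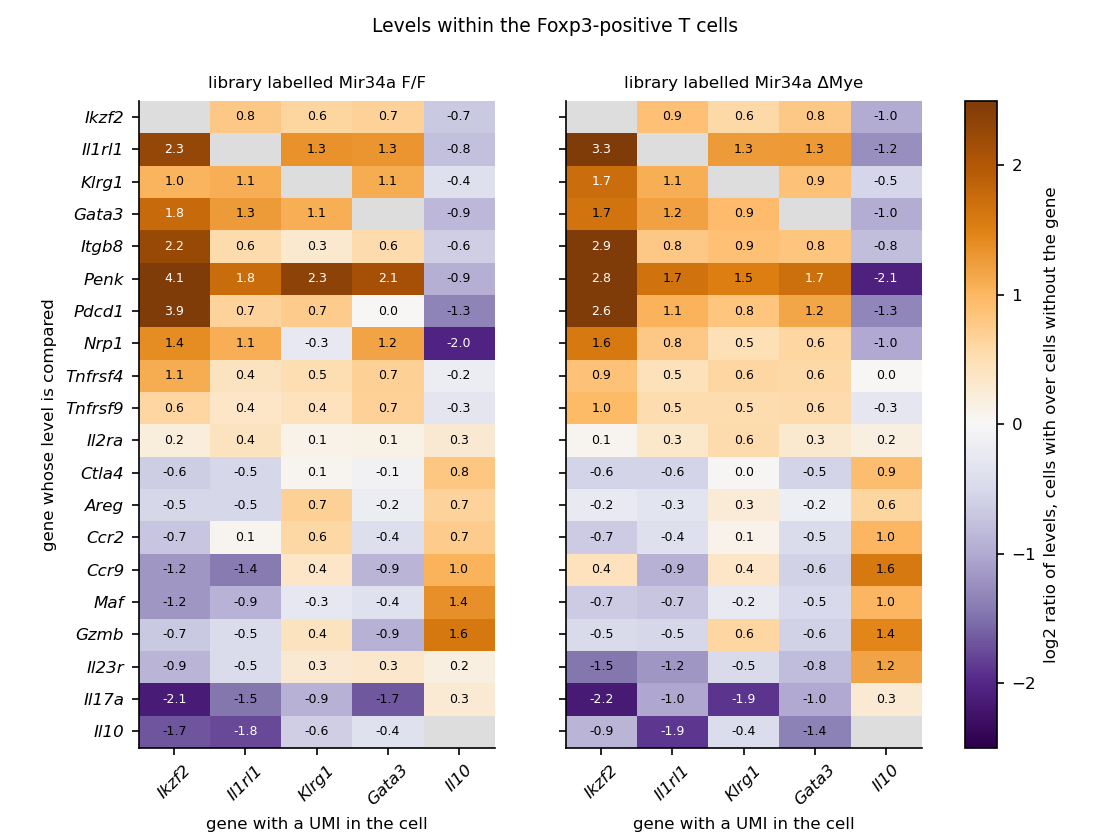
Log2 ratio of the level of a gene (rows) in *Foxp3*-positive T cells with a UMI of the column's gene over those without, in each library. Orange marks higher and purple lower levels in cells with the gene, and grey marks a gene against itself. The columns *Ikzf2*, *Il1rl1*, *Klrg1* and *Gata3* share raised *Penk*, while the column *Il10* has raised *Maf*, *Gzmb* and *Ctla4*. *Gzmb* is also raised in the column *Klrg1* (0.41 and 0.61), as is *Areg* (0.70 and 0.25), which is lower in the columns *Ikzf2*, *Il1rl1* and *Gata3*.

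Between the libraries, most of the largest differences in *Foxp3*-positive cells were shared by the comparison cells. In *Foxp3*-positive cells, the median log2 ratio of the ΔMye library over the F/F library was -0.04 over all measured genes. Among genes found in at least 25% of cells, with a level of at least 0.5 in a library, the 8 with the largest ratios included the immunoglobulin genes *Iglc2*, *Igha*, *Igkc* and *Jchain*. *Igkc* had levels of 12.1 and 26.7 in *Foxp3*-positive cells, a log2 ratio of 1.14 (1.06 to 1.21), and of 11.0 and 24.6 in the comparison cells, a log2 ratio of 1.16 (1.09 to 1.22). *Gm15564* behaved in the same way, with 1.67 and 1.42. *Setbp1*, *Ank* and *Ttn* had log2 ratios of 1.07, 1.20 and 1.04 in *Foxp3*-positive cells and of 0.33, 0.49 and 0.22 in the comparison cells. *Ttn*, the gene of titin, had levels of 0.712 and 1.47, against 0.397 and 0.462 in the comparison cells. These genes were chosen for their ratios in *Foxp3*-positive cells, so that a smaller ratio in the comparison cells is a description. The genes with the lowest ratios included *Gm41609*, *Nupr1*, *Snhg9*, *S100a9*, *Spp1*, *1110038B12Rik* and *Fxyd3*. Apart from *S100a9*, the log2 ratios of these lay between -1.49 and -1.36 in *Foxp3*-positive cells and between -1.44 and -1.12 in the comparison cells. *S100a9* had -1.67 and -0.19.

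The median log2 ratio of the ΔMye over the F/F library for the 14 measured identity genes was 0.39 in *Foxp3*-positive cells and 0.04 in the comparison cells, a difference that was not tested. *Il2ra* (0.40) and *Ikzf2* (0.49) had ratios near those of the comparison cells (0.41 and 0.59). *Tnfrsf9* had 0.17 against -0.11 and *Tnfrsf4* 0.02 against -0.12. *Foxp3* itself had levels of 4.90 and 3.87, which the choice of cells with at least 1 UMI affects, as 1 UMI makes up a larger share of a shallower cell. Further list genes, chosen after their values were seen, were *Ccr2*, with a log2 ratio of 0.84 (0.66 to 1.01) in *Foxp3*-positive cells and 0.34 (0.09 to 0.59) in the comparison cells, *Gzmb*, with 0.58 (0.37 to 0.77) and -0.42 (-0.74 to -0.07), and *Havcr2* (TIM-3), with 0.74 (0.46 to 1.01) and -0.20 (-0.46 to 0.06). *Il10* had 0.54 (0.18 to 0.90) and 0.11 (-0.51 to 0.74), with overlapping intervals. With 1 library per genotype, the genotype and the library cannot be told apart, and none of these differences has a replicate check. *Foxp3* may be missed more often in the shallower F/F library, so its comparison cells may hold more regulatory T cells, which was not tested.

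**Figure D5:**
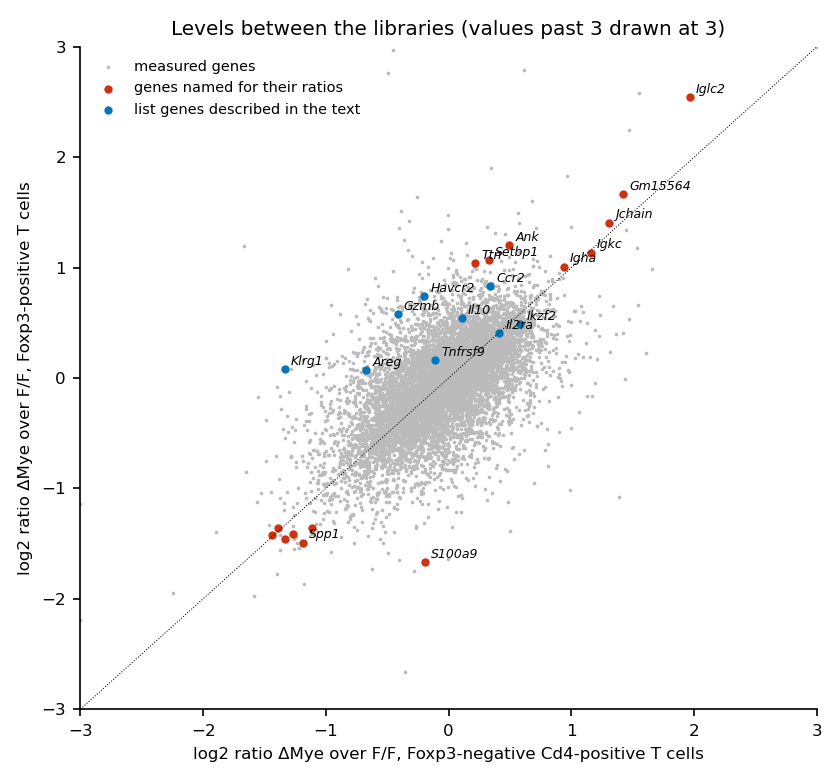
Log2 ratio of the ΔMye library over the F/F library in *Foxp3*-negative *Cd4*-positive (x axis) and *Foxp3*-positive T cells (y axis). Grey points are measured genes, red points the genes named for their ratios (most of the lower ones without a name) and blue points list genes named in the text, and the dotted line marks equal ratios; *Igkc* lies on the line with 1.16 and 1.14, and *S100a9* below it with -0.19 and -1.67.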

How the data were processed

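Single cells of CACs were profiled with the 10x 3′ v3.1 chemistry, and a metadata table assigns each cell to a library and a cell type. The authors aligned reads to mm10 with Cell Ranger 7.2.0, filtered cells on expressed mRNAs and mitochondrial content and removed doublets with Scrublet, so that no doublet caller was run here. They deposited the natural log of 1 plus UMIs per 10000 for 32291 genes, made with Seurat's LogNormalize. Undoing the log and dividing by the smallest value of a cell gave whole UMIs (largest deviation 1.5e-10).

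Levels were means over cells of UMIs per 10000, with 95% gamma intervals of weighted Poisson sums that were combined on the log scale for ratios. Shares had exact binomial intervals. Measured genes had a mean level of at least 0.1 and at least 20 UMIs in the compared classes of each library. The limit of 2-fold is one of size, and no p-value was computed. Genes named are the members of the lists, the 15 genes with the largest and the 15 with the smallest ratios, ranked in the library nearer 0, the 8 per direction between libraries and the features of *Mir34a*. *Il22* and the list genes compared between libraries were named after their values were seen. Some listed or ranked genes are not reported here. The cells and lists were chosen with earlier results of these data known. The interval of the ratio was tried on simulated UMIs of known levels, drawn with counting error alone, which is no test of the reported ratios. Python 3.11.15 with numpy 2.4.6, scipy 1.17.1, pandas 2.3.3 and matplotlib 3.10.9 was used. The alternatives tried were sums of UMIs over cells, cells thinned to 1000 UMIs, stricter choices of cells, a pseudocount of 1 and a mean level of at least 0.5. Leaving out the cell with most UMIs of a gene was added after the data were seen.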

Additional observations from a re-analysis of the deposited data

Results flagged for a closer look

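For 3 of the named genes, the ratio of *Foxp3*-positive over comparison cells had opposite directions in the libraries, with counting intervals on opposite sides of 0. The difference between the libraries was not tested. *S100a8* had a log2 ratio of 1.19 in the F/F library and of -0.19 in the ΔMye library, and *S100a9* had 1.12 and -0.35. Both encode the neutrophil protein calprotectin. A single *Foxp3*-positive cell held 24.7% of the *S100a8* UMIs and 22.6% of the *S100a9* UMIs in the F/F library, and without the cell with most UMIs the ratios there were 0.83 and 0.93. Neutrophils had *S100a8* levels of 610.3 and 426.1, against 4.86 and 1.90 in *Foxp3*-positive cells. *Gzma*, the protease granzyme A, had a log2 ratio of -1.24 in the F/F library and of 0.32 in the ΔMye library. There, 1 cell held 63.8% of its 1394 UMIs, and without it the ratio was -0.58, on the same side as in the other library.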

How the results depend on the processing

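The number of genes at least 2-fold higher was 91 to 129 and of those lower 77 to 113 over the choices of cells, summing and thinning. Of the 111 and 90 genes, 66 and 62 were shared with the thinned cells, in which fewer genes (6572) were measured, and 59 and 54 with the strictest choice of cells. A mean level of at least 0.5 left 3440 genes, of which 60 were higher and 39 lower. The share of *Foxp3*-positive T cells was 5.76% and 7.42% after thinning, 6.93% and 15.5% with at least 2 *Foxp3* UMIs, and 43.3% and 43.4% of T cells with *Foxp3* or *Cd4*. With a T-cell gene and no *Epcam*, *Cd79a*, *Lyz2* or *Cpa3* UMI, which left 106 and 82 *Foxp3*-positive cells, it was 16.5% and 23.2%. In these few cells, *Mreg* changed direction to -0.26 and *Ccl20* to 0.22 in the F/F library, and the cause was not tested. The other called ratios kept their direction under the alternatives run, but many changed in size. Besides these 2, 808 ratios of *Foxp3*-positive over comparison cells left the counting interval of the reported value under an alternative, and 2808 did not. The 808 were 201 with the strictest choice of cells, 163 with a pseudocount of 1, 121 with *Cd4*-positive cells without *Cd8a* or *Cd8b1*, 105 after thinning, 93 with at least 2 *Foxp3* UMIs, 54 at 3000 to 12000 UMIs, 52 with summed UMIs, 17 without the cell with most UMIs and 2 with at least 500 mRNAs and under 10% mitochondrial content. Of the ratios between libraries, 30 left it and 98 did not. No paired analysis was possible because each genotype has 1 library. Depth limits mRNAs of few UMIs such as *Ccr8* and *Lrrc32*.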
